A study of Rattus norvegicus with 2 samples.

Results

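The 10 genes described here encode enzymes and regulators of lipogenesis, the synthesis of fatty acids from carbohydrate. They are Mlxipl (ChREBP), Srebf1, Thrsp (Spot 14), Pklr, Acly, Me1, Acaca, Acacb, Fasn and Scd1. Every probe set that carries 1 of these symbols in the deposited annotation was taken, whatever its values, which gave 17 of the 31038 probe sets analysed, or 10 of 13717 genes with a symbol of their own in the file. Of the 10 genes, 4 had a single probe set and 6 had several. The measurement was messenger RNA on Affymetrix Rat Genome 230 2.0 GeneChips. Primary hepatocytes, liver parenchymal cells freshly isolated and placed in culture, came from male SD rats and grew on collagen in a hepatocyte medium with growth factors. The control culture received no hormone, and the other culture received 1 nM triiodothyronine (T3), the active thyroid hormone, for 24 h. The title of the control sample gives no time. The labels do not give the number of rats, whether cells were pooled, or the hormone and glucose content of the medium that both cultures shared. With 1 array per group there is no replicate, no difference was tested, and precision is limited by the number of arrays.

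Lipogenesis turns citrate exported from mitochondria into acetyl-CoA, malonyl-CoA and then palmitate, using NADPH as the reductant. In liver the genes of these steps are switched on together by feeding, through the insulin-driven factor SREBP-1c (from Srebf1) and the glucose-driven factor ChREBP (from Mlxipl). Thyroid hormone is a further known inducer, and in rat liver Thrsp and Me1 are classical genes that respond to it.

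A MAS5 signal is the summarised brightness of 1 probe set on 1 array, and the detection call scores whether its perfect-match probes outshine their mismatch partners. Present calls were made for 56.7% of probe sets on the control array and 55.6% on the T3 array, and 16524 were present on both. Their median log2 ratio of T3 to control was -0.0066, so the arrays were on 1 scale. RNA integrity, read as the 3' over the 5' signal of a control transcript, was 1.32 and 1.38 by beta-actin and 1.15 and 1.16 by GAPDH on the control and T3 arrays. All 8 hepatocyte markers that have a probe set were detected, among them Alb, Ttr, Apoa1 and Apob, with a summed signal of 13537 in control and 12877 with T3. Of the 8, 4 had a ratio above 1 and 4 below, with a median log2 ratio of 0.0005. Alb, the brightest of them, had signals of 3972 and 3449. Of 7 measured adipocyte markers, cells that also make fat, 2 were detected. These were Cidec (227 and 226) and the dim Adipoq (16.1 and 8.90), while Lep, Plin1 and Fabp4 were absent on both arrays. Of 5 measured bile duct markers 3 were detected, Krt7, Krt19 and Epcam, and all 5 summed to 2810 and 2466. Of 9 stellate cell and fibroblast markers 7 were detected, 3 with a ratio above 1 and 4 below. All 9 summed to 2915 and 2621, mostly from Vim (1621 and 1418) and Tagln (1096 and 986), while Col1a2 and Pdgfrb were absent on both arrays. Of 5 measured endothelial markers 2 were detected, Ramp2 (13.9 and 8.05) and Egfl7 (31.0 and 47.8), and all 5 summed to 53.0 and 62.9. Of 5 measured leukocyte markers Cd163 alone was detected (4.79 and 7.64), while the sum, mostly of absent probe sets, was 29.4 and 23.3. The part of other cells in the values below was not tested, and in a bulk culture fewer cells of a type and less RNA per cell cannot be told apart.

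Among the 10 genes the regulators Mlxipl and Thrsp had higher signals with T3, and Acacb had a lower one. Mlxipl stood at 2.01 times its control signal in its only probe set, and Thrsp at 1.35 to 1.497 times in 3 probe sets. Pklr stood at 1.27 times control, and Acacb, absent with T3, at 0.612 times control. The bulk of the synthetic machinery was near equal: the probe sets of Srebf1, Acly, Me1, Acaca, Fasn and Scd1 all lay between 0.903 and 1.10 times control.

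Of the 16 probe sets present on at least 1 array, 11 had a ratio above 1 and 5 below. Among all 18332 such probe sets, 49.1% lay above 1. The median log2 ratio was 0.09 for the 16 and -0.004 for all. These values count some genes more than once, among them Thrsp with 3 probe sets. With each gene represented by its brightest detected probe set, 6 of the 10 genes lay above 1 and 4 below. Among all 9749 genes, 50% lay above 1. The median log2 ratio by gene was 0.026 for the 10 and 0.0003 for all. The lean of the 16 probe sets is thus no result about the 10 genes as a set. Past 1.5-fold and present on the brighter array were 1 of the 16 higher, Mlxipl, and 1 lower, Acacb. In the whole set of 18332, 4.11% passed this limit upwards and 2.65% downwards. A count of 1 among 16 in each direction is close to this background, so the counts are no result about the 10 genes as a set. Past 2-fold higher was Mlxipl, at the limit with a ratio of 2.006, against a background of 1.28%. In the other direction 0 were past 2-fold lower, against 0.878%.

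**Figure D1:**
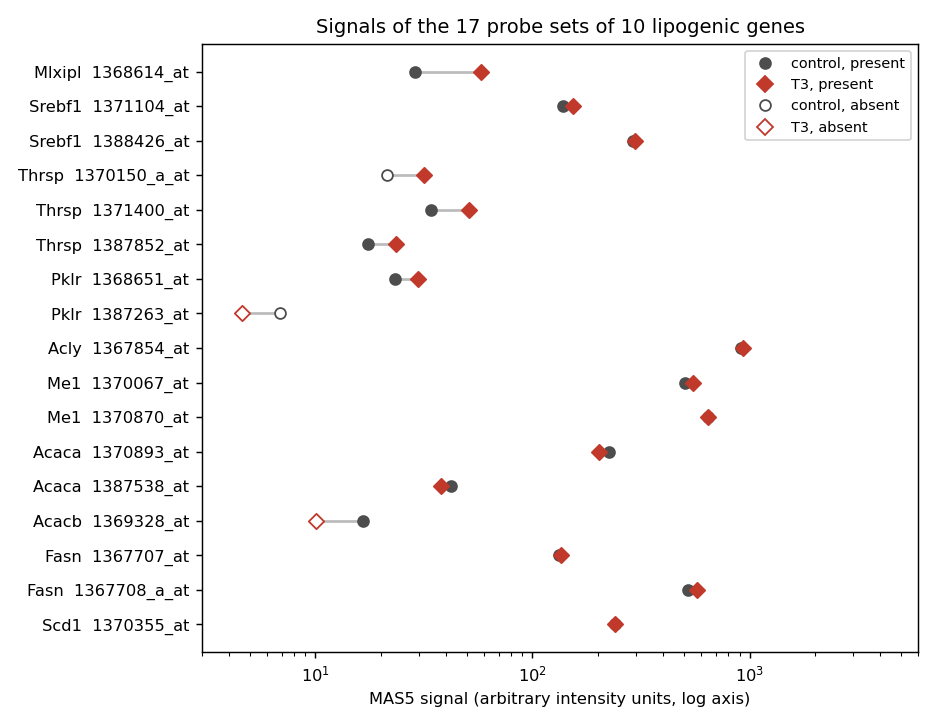
MAS5 signals (log axis, intensity units) of the 17 probe sets on the control array (grey circles) and the T3 array (red diamonds), with open symbols for absent calls; 1 array per group, so there are no error bars. Mlxipl moves from 28.8 to 57.7 and each Thrsp probe set lies further right with T3, while the symbols of Acly, Me1, Fasn and Scd1 nearly coincide.

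With no replicate array, the spread of ratios among probe sets of like signal was the measure set beside each value. The 16524 probe sets present on both arrays were divided into 5 groups of equal size by geometric mean signal. The central 95% of ratios ran from 0.606 to 1.86 in signal group 1, the dimmest, from 0.710 to 1.47 in group 2, from 0.757 to 1.34 in group 3, from 0.802 to 1.25 in group 4 and from 0.854 to 1.19 in group 5. This spread holds technical and biological differences together. The share of ratios above 1 was 54.9% in group 1 and 44.8% in group 5. Of the 14 probe sets of the 10 genes that were present on both arrays, 12 lay inside the range of their group, where 95% of all probe sets lie by construction. Mlxipl and 1 Thrsp probe set lay outside it, both above.

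**Figure D2:**
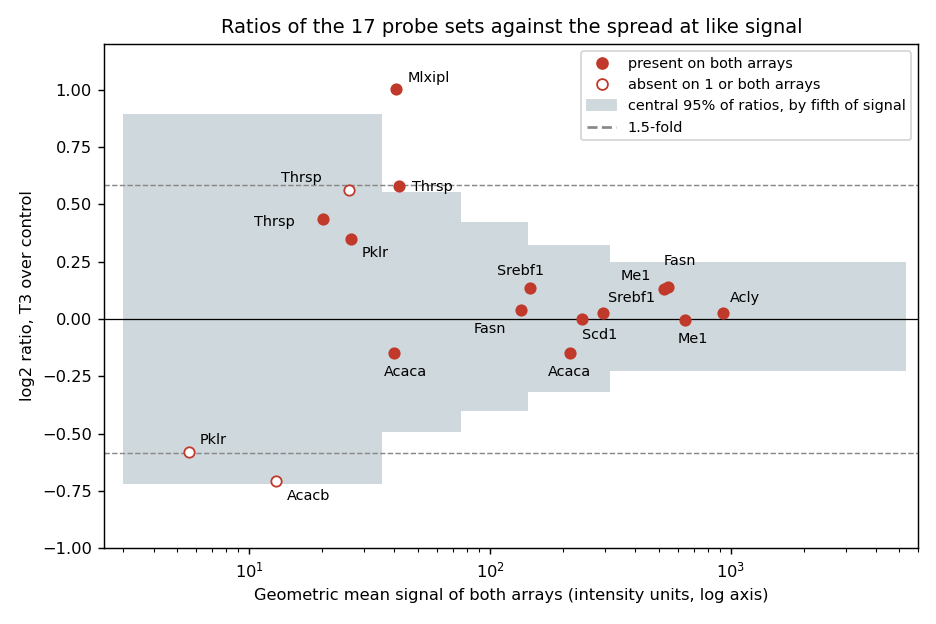
Log2 ratio of T3 to control signal against the geometric mean signal of both arrays (log axis) for the 17 probe sets; grey steps mark the central 95% of ratios in the 5 signal groups and dashed lines mark 1.5-fold. Mlxipl and the brightest Thrsp probe set (0.58) lie above the grey area, and the remaining filled points lie within it.

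The upstream regions shown are those of the 4 genes whose brightest detected probe sets had the ratios farthest from 1. The choice went by ratio and not by difference in signal, which was larger for Fasn (52.7) than for Pklr (6.39). The ratios of Pklr and Acacb lay inside the range of the dimmest signal group. Each is the 250 bases before a RefSeq transcription start in rat assembly GRCr8, 5′ to 3′ on the gene's strand. Capitals mark every match to 6 short motifs searched on both strands.
Mlxipl (chr12:27213661-27213910, minus strand): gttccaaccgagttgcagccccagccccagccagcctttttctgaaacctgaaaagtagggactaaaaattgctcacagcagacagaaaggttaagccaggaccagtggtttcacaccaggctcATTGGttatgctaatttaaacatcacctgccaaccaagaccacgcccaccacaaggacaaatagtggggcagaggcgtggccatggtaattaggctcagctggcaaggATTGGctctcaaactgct
Thrsp (chr1:161138965-161139214, minus strand): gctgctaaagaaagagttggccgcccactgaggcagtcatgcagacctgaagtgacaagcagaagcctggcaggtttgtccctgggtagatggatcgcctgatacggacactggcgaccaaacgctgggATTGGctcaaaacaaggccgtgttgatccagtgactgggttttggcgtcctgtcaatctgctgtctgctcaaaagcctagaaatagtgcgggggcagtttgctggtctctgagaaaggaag
Pklr (chr2:176841014-176841263, plus strand): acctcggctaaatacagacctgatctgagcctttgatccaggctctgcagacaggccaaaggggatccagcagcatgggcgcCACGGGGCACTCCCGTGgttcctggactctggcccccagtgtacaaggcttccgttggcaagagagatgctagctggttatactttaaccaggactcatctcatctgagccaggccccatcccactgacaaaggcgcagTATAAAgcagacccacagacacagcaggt
Acacb (chr12:48138215-48138464, minus strand): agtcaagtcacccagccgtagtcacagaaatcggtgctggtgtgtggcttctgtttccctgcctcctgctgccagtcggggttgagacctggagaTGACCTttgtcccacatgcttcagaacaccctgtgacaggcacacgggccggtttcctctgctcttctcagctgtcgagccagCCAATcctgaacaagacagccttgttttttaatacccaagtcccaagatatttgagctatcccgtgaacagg

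The motifs were the E-box CACGTG, to which basic helix-loop-helix factors bind, a paired E-box shape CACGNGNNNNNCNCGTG, the nuclear receptor half-site AGGTCA, the CCAAT box of the factor NF-Y, the sterol element TCACNCCAC and the TATA box TATAAA. A match to the paired shape can hold an E-box match inside it. The Pklr region holds the paired shape from 168 to 152 bases before the start, in a stretch known from work on rat liver pyruvate kinase as its carbohydrate response element, the kind of site to which ChREBP and its partner Mlx bind. The shape was spelled with that element in view, so the match itself is no finding; 7 of 33469 upstream windows of the same length (0.0209%) hold it. Pklr also holds TATAAA, from 29 to 24 bases before the start, as do 12.9% of windows. Mlxipl has ATTGG, which is CCAAT on the opposite strand, at 126 to 122 and at 18 to 14 bases before the start, and Thrsp has it at 121 to 117. From a second RefSeq start of Mlxipl, not printed, the same sites lie at 130 to 126 and at 22 to 18 bases.

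CCAAT was found in 5 of the 8 genes with a window, namely Mlxipl, Srebf1, Thrsp, Acly and Acacb, and in 34.0% of all windows. The 8 genes have 10 windows, since Mlxipl and Srebf1 have 2 each, and a match in either counted for the gene. The count of genes and the share of windows are thus not quite alike. Acacb was the only 1 of the 8 with AGGTCA, on the opposite strand (TGACCT) from 155 to 150 bases before the start, a motif in 14.1% of windows. CACGTG (5.59% of windows) and TCACNCCAC (0.974%) had no match in any of the 8. The 4 printed regions had a G and C content of 50.8% for Mlxipl, 53.6% for Acacb, 54.0% for Thrsp and 56.4% for Pklr. The other windows ran from 58.8% for Scd1 to 83.2% for Me1, with 68.0% for Acly and up to 70.4% for the alternative starts of Srebf1. The median over all windows was 51.2%. These are descriptions of 250 bases per gene, and elements farther away are not covered.

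Mlxipl encodes ChREBP, the carbohydrate response element-binding protein, which pairs with Mlx and activates glycolytic and lipogenic genes when glucose is plentiful. Its probe set, 1368614_at, had a signal of 28.8 in control and 57.7 with T3. It was present on both arrays, with the authors' deposited detection p-values of 0.00122 and 0.00293. The ratio of 2.01 lay above the range of its signal group (0.710 to 1.47), in which 2.00% of probe sets were past 1.5-fold higher. No second Mlxipl probe set was found, so the value has no repeat within the arrays. The log2 ratio was 0.9985 after loess scaling and 0.9889 after quantile normalization, both just under 2-fold. After a pseudocount of 64, which is larger than either signal, the log2 ratio was 0.39 and no longer past 1.5-fold.

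Thrsp encodes Spot 14, a small acidic protein that promotes lipogenesis and was named for its response to thyroid hormone in rat liver. Probe set 1371400_at had signals of 34.2 in control and 51.2 with T3, and was present on both arrays. Probe set 1387852_at had 17.4 and 23.5, present on both, and 1370150_a_at had 21.4 and 31.7, absent in control. The T3 signal was thus the higher in all 3 probe sets, by 1.497-fold, 1.35-fold and 1.48-fold, the last against an absent control signal. These ratios span 0.14 on the log2 scale, against a median span of 0.21 over 2443 genes with at least 2 detected probe sets. The probe sets read the same RNA on the same arrays and are not replicates of the treatment.

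The ratio of 1371400_at, 1.497, lay just under the 1.5-fold limit and just above the upper end of its signal group, 1.47. This group begins at a geometric mean signal of 35.7, and the upper end of the dimmer group next to it was 1.86. The place of 1371400_at outside the range thus rests on where the groups were divided. After the arrays were centred on their median log2 ratio this probe set passed 1.5-fold, which raised the count of higher genes to 2. The other 2 Thrsp probe sets fell in the dimmest signal group and inside its range. The range is of probe sets present on both arrays, whereas 1370150_a_at was absent in control. Detection was weak in 1387852_at and 1370150_a_at, with the authors' deposited detection p-values from 0.0303 to 0.0952. For 1371400_at these p-values were 0.0107 in control and 0.00293 with T3. The ratio of 1370150_a_at was taken against its own absent control signal and is not a minimum of the change. That signal was higher than the lowest present signal of the control array (2.07). Signals this low are not a firm detection limit, since the median absent signal in control was 3.91 while present signals had a 25th percentile of 37.2.

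Srebf1 encodes the precursor of SREBP-1, whose 1c form activates lipogenic genes in response to insulin. Probe set 1371104_at had signals of 139 and 153, and 1388426_at had 291 and 296, in the order control and T3. The ratios were 1.10 and 1.02, and both lay inside the range of signal group 4. The files do not say which of the alternative first exons these probe sets read, so the 1a and 1c forms were not separated.

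Pklr encodes the pyruvate kinase of liver and red cells, which closes glycolysis and supplies the pyruvate from which citrate is made. Probe set 1368651_at had a signal of 23.4 in control and 29.8 with T3, and was present on both arrays. Its ratio of 1.27 lay inside the range of the dimmest signal group. The other probe set, 1387263_at, was absent on both arrays (6.86 and 4.59) and has no ratio here. Pkm, the gene of the muscle-type isoform and chosen after its values were seen, was present at 836 and 823, a ratio of 0.985.

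Acly encodes ATP citrate lyase, which cleaves exported citrate into acetyl-CoA. The signal was 916 in control, and 933 after T3, for a ratio of 1.02 in the brightest signal group. Me1 encodes the cytosolic malic enzyme, which returns carbon to pyruvate and yields NADPH. Probe set 1370067_at had signals of 503 and 551, and 1370870_at had 643 and 642. The Me1 ratios of 1.10 and 0.997 fell on either side of 1 and inside the range of 0.854 to 1.19, so neither probe set stood apart from others of its brightness. Of the mitochondrial relatives, chosen after their values were seen, Me2 was at 95.9 and 128 (ratio 1.33) and Me3 at 26.3 and 23.6 (ratio 0.897).

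Acaca and Acacb encode the acetyl-CoA carboxylases that make malonyl-CoA, the former in the cytosol for fatty acid synthesis, the latter at the mitochondrial surface, where malonyl-CoA restrains fatty acid import by carnitine palmitoyltransferase 1. Acaca probe set 1370893_at had signals of 225 in control and 203 with T3, and 1387538_at had 42.0 and 38.0. Both were present on both arrays and both gave a ratio of 0.903, inside the ranges of groups 4 and 2. The agreement to within 0.0005 on the log2 scale is closer than the median span of 0.18 over the 1876 genes for which exactly 2 probe sets were detected.

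Acacb had 1 probe set, 1369328_at, with a signal of 16.5 in control and 10.1 with T3. It was present in control with the authors' deposited detection p-value of 0.0461, the highest at which any probe set was called present, and absent with T3 at 0.219. The signal was 1.63-fold lower with T3, taken against its own absent signal. With 1 array per group this is not a minimum of the change. The ratio of 0.612 lay just inside the lower end of the dimmest signal group, 0.606, in which 4.75% of probe sets were past 1.5-fold lower. That range and share are of probe sets present on both arrays, which Acacb was not. Where detection on both arrays was required, Acacb had no ratio and 0 of the 10 genes were lower. Mlycd, which encodes the decarboxylase that removes malonyl-CoA, had signals of 132 and 171, a ratio of 1.30 and short of 1.5-fold.

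Fasn encodes fatty acid synthase, which builds palmitate from malonyl-CoA and NADPH. Probe set 1367708_a_at had signals of 520 in control and 573 with T3, and 1367707_at had 132 and 136. The ratios were 1.10 and 1.03, on the same side of 1 and inside the ranges of groups 5 and 3. Scd1, the stearoyl-CoA desaturase that places the double bond of oleate, had signals of 241 on both arrays and a ratio of 0.999. Its paralog Scd2 gave ratios of 0.920, 0.803, 0.979 and 1.92 in 4 detected probe sets, with the highest in a dim one (20.5 and 39.4).

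For the genes with several detected probe sets, the lowest and highest log2 ratios lay on the same side of 0 in Srebf1, Thrsp, Acaca and Fasn and on different sides in Me1. Their spans were 0.11, 0.14, 0.0005, 0.099 and 0.14 in Srebf1, Thrsp, Acaca, Fasn and Me1. Ordered by the ratio of the brightest detected probe set, the genes ran from Mlxipl (2.01) through Thrsp (1.497), Pklr (1.27), Fasn (1.10), Acly (1.02), Srebf1 (1.02), Scd1 (0.999), Me1 (0.997) and Acaca (0.903) to Acacb (0.612). The neighbours from Fasn to Acaca did not differ beyond the spread of their signal groups. The place of Pklr and Acacb in this order rests on dim signals, for which the range of like probe sets was 0.606 to 1.86.

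The probe sets also differed in how precisely a ratio could be read. The 8 in the upper signal groups, 4 and 5, belong to 6 genes, and their ratios ran from 0.903 to 1.10. The largest departure from equality among them was 10.1%. The other 8 detected probe sets ran from 0.612 to 2.01, with 6 above 1. All detected probe sets of Mlxipl, Thrsp, Pklr and Acacb were in groups 1 and 2, and none of these 4 genes had a bright probe set to set beside the dim ones.

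**Figure D3:**
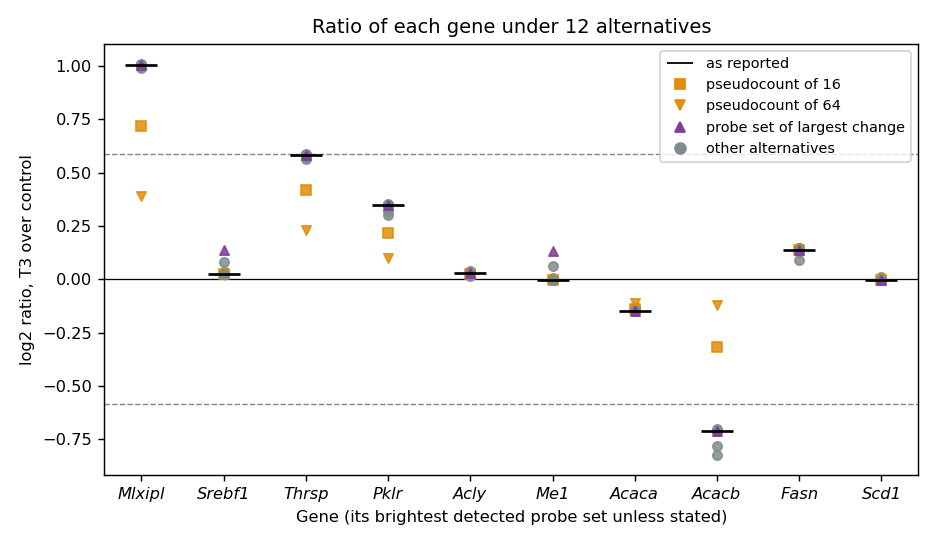
Log2 ratio of T3 to control signal for each gene as reported (black bars) and under the alternatives for scaling, detection, naming, pseudocount and probe set (symbols); dashed lines mark 1.5-fold. Mlxipl, Thrsp, Pklr and Acacb shift towards 0 with a pseudocount of 16 or 64, and the other 6 genes stay between -0.15 and 0.15.

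None of the 21 detected regulators and partners of these genes passed 1.5-fold. Of 9749 genes represented by their brightest detected probe set, 2.83% passed this limit upwards and 1.72% downwards. Among 21 genes such a count is close to this background, so it is no result about the regulators and partners as a set. Mlx, the obligate partner of ChREBP, was at 341 and 348 (ratio 1.02) in its brightest probe set and at 262 and 225 (ratio 0.859) in the other. Its relative Mlxip was absent on both arrays. Mid1ip1, the paralog of Thrsp whose product also acts on acetyl-CoA carboxylase, was at 594 and 569, a ratio of 0.957. Srebf2 was at 368 and 421 (ratio 1.15). The SREBP-retaining protein gene Insig1, itself a target of SREBP, was at 1249 and 1063, and its ratio of 0.851 lay just below the central 95% of its signal group (0.854 to 1.19). Of the thyroid hormone receptor genes, Thra had signals of 17.1 and 16.1 in its detected probe set and 2 further probe sets were absent on both arrays. Thrb had 12.4 (absent) and 10.8 (present) in 1 probe set and 10.2 (present) and 8.30 (absent) in the other, so neither gives a ratio measured on both arrays.

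In 5 lists of pathway genes, 78 genes outside the 10 were taken as a whole, of which 49 were detected under the symbol in the file. Past 1.5-fold were 0 higher and 0 lower, against 2.83% higher and 1.72% lower of 9749 genes represented by their brightest detected probe set. Of the 49, 45 (91.8%) lay within 1.2-fold, against 81.2% of all 9749 genes, and 23 (46.9%) lay above 1, against 50% of all genes. The median log2 ratio was -0.0057 against 0.0003. Most partner genes present on both arrays were bright, in signal groups 4 and 5. In those groups 0.454% and 0.151% of all probe sets were past 1.5-fold higher, and 0.121% and 0.151% lower. The counts and the share within 1.2-fold are therefore no result about the partner genes as a set. Past 1.2-fold, 2 partner genes were higher and 2 lower, against 10.3% higher and 7.66% lower over all genes; of all detected probe sets 13.1% were higher and 11.1% lower. Of 46 partner genes present on both arrays, 43 lay inside the central 95% of ratios in their signal group, Dgat2 and Mlycd lay above it and Insig1 below it. When probe sets were named by gene number instead, 64 were detected and 1 was past 1.5-fold, G6pc1, the glucose-6-phosphatase gene, at 34.3 and 56.4 (ratio 1.64), against 2.78% higher and 1.57% lower over all genes.

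In NADPH and precursor supply, 0 of 10 detected genes were past 1.5-fold in either direction and the median log2 ratio was 0.02. The genes with the highest signals were Tkt, a transketolase (1552 and 1361), Slc2a2, the hepatic glucose transporter (1224 and 1220), and Mdh1, the cytosolic malate dehydrogenase (1063 and 1130). The ratios of the list ran from 0.838 to 1.39, the latter in the fructose kinase gene Khk (46.9 and 65.1). Slc25a1, the carrier that exports citrate to Acly, had a signal of 605 on both arrays.

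In elongation, desaturation and activation of fatty acids, 0 of 10 passed 1.5-fold, and the median was -0.02, with ratios of 0.823 to 1.15. Scd2 (1997 and 1837), the acyl-CoA-binding protein gene Dbi (1745 and 1779) and the acyl-CoA synthetase gene Acsl4 (1437 and 1377) had the highest signals. In glycerolipid synthesis and storage, 0 of 5 passed it, the median was 0.11, with ratios of 0.968 to 1.19. The diacylglycerol acyltransferase genes Dgat2 (343 and 407) and Dgat1 (311 and 301) and the phosphatidate phosphatase gene Lpin3 (194 and 222) had the highest signals. By gene number 11 genes of that list were detected and the median was -0.0002.

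Among regulators and partners, 0 of 21 were past 1.5-fold, 7 lay above 1 and 14 below, and the median was -0.06. Of all genes 50% lay above 1, and of probe sets 45.7% in signal group 4 and 44.8% in group 5. The split was 6 above and 4 below in precursor supply and 5 and 5 in elongation, desaturation and activation. It was 4 and 1 in glycerolipid synthesis and 3 and 4 in known ChREBP targets. The split of the 21 was not tested and is no result about the regulators and partners as a set. Besides Insig1 and Mid1ip1, Srebf2 had the highest signals. The lowest ratio was 0.755 in Nfya, a subunit of NF-Y (47.6 and 35.9, marginal with T3), and the highest was 1.30 in Mlycd, the malonyl-CoA decarboxylase gene (132 and 171), above the central 95% of its signal group (0.802 to 1.25). Among known ChREBP targets 0 of 7 detected genes passed 1.5-fold, the median was -0.01, with ratios of 0.877 to 1.39. By gene number 10 of these targets were detected, G6pc1 (ratio 1.64) was past 1.5-fold, and the median was 0.07. Tkt and Gpd1 (342 and 322) were among those of highest signal, and Txnip, a target that responds strongly to glucose, was at 145 and 143. Tkt, Khk and Gpd1 are among the targets that also stand in the list of precursor supply.

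**Figure D4:**
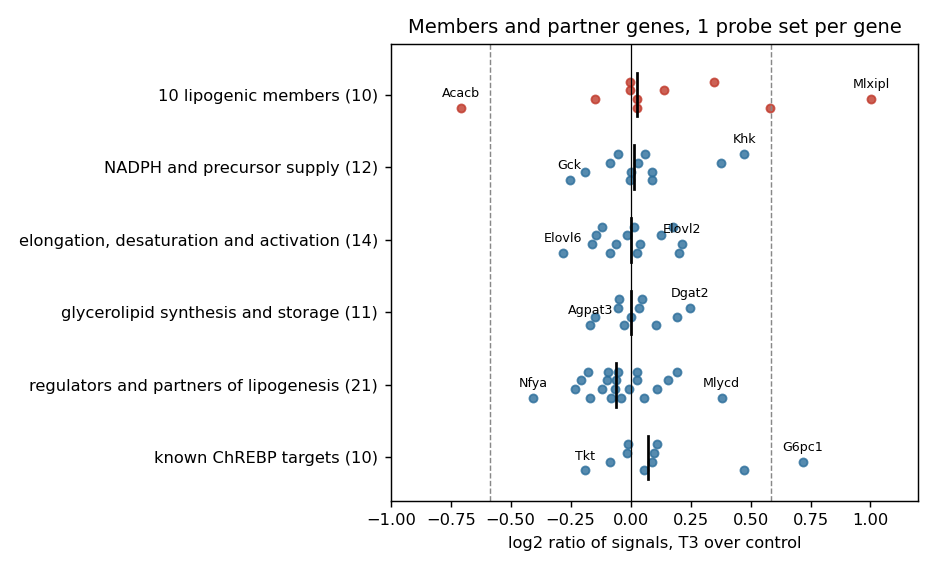
Log2 ratio of T3 to control signal for the 10 lipogenic genes (red) and for the detected genes of 5 partner lists named by gene number (blue), with 1 probe set per gene; black bars mark list medians, dashed lines 1.5-fold, and the lowest and highest gene of each list is named. Mlxipl, Acacb and G6pc1 lie past 1.5-fold.

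The authors also deposited sheets of probe sets they selected by fold, and 2 of the 17 are on them. The Mlxipl probe set is listed in the authors' deposited tables of 2-fold and 1.5-fold higher probe sets at a ratio of 2.01. The Acacb probe set appears at 0.612 in the authors' deposited table of those lower by 1.5-fold. No Thrsp probe set is listed there; the highest of their ratios was 1.497.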

How the data were processed

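The authors deposited 1 MAS5 signal intensity per probe set and array, a MAS5 detection p-value and a call of present, marginal or absent, per the file headers. Affymetrix Expression Console made them, per the submitters' processing notes; version and scaling target: not given in the sources used here. The deposited ratio is T3 over control signal and equalled the quotient within 2.2e-15. The series value table held the same intensities for all 31095 probe sets (relative tolerance 1e-06), and 57 array controls were left out. The log2 ratio was computed from the deposited signals without a pseudocount. A gene is represented by its detected (present on at least 1 array) probe set with the highest mean signal. Past a threshold means at least 1.5-fold or 2-fold with a present call on the array of higher signal. Naming followed the symbol in the file, where Scd1 is the gene now called Scd. Upstream windows are from RefSeq (GRCr8) and were matched by gene number for 8 of the 10 genes; Fasn and Acaca are named only. Code ran in Python 3.11.15 and was tested on simulated data. The partner genes named are those past 1.5-fold and the 3 of highest mean signal in each list; others were chosen after their values were seen, and 1 that the rule names is not reported here. The genes and lists were chosen with earlier results of these data known.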

Additional observations from a re-analysis of the deposited data

How the results depend on the processing

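No paired analysis was possible because each group has 1 array. Of 199 values under the alternatives 175 stayed within limits. The limits were 1.5 times the reported count, or 1 SD of the log2 ratios in the gene's signal group. The other 24 moved, and 0 turned their sign as called values. Part of the 175 could not move. The series value table holds the same signals, and changes of detection or naming gave the same log2 ratio for every gene that kept one. The log2 ratios of Me1 and Scd1, near 0, did change sign, from -0.004 to at most 0.13 and from -0.001 to at most 0.0103. The reported counts were 1 higher and 1 lower, both for probe sets and for genes, and 0 and 0 for partner genes. Median centring gave 2 higher probe sets and 2 higher genes. A pseudocount of 64 gave 0 higher and 0 lower of either. A pseudocount of 16, detection on both arrays and a limit of 2-fold each gave 0 lower of either. At 1.2-fold 5 probe sets and 3 genes were higher, and of partner genes 2 were higher (Khk, Mlycd) and 2 lower (Elovl6, Nfya); 13.1% of all detected probe sets and 10.3% of all genes were higher, and 7.66% of all genes lower. Partner genes past 1.5-fold and higher were 2 without a detection filter (Fabp1, Ppargc1b), 2 with the probe set of largest change (Acsl1, Scd2) and 1 by gene number (G6pc1). The log2 ratio of Mlxipl was 0.72 with a pseudocount of 16 and 0.39 with 64; with 64 those of Thrsp and Acacb were 0.23 and -0.12. Pseudocounts shrink ratios of dim probe sets by construction. The log2 ratio of Me1 was 0.13 with its probe set of largest change. Over the alternatives Thrsp ran from 0.23 to 0.59 and Acacb, which has no value with detection on both arrays, from -0.82 to -0.12. Loess used a span of 0.4. Precision is limited by 1 array per group and, for Mlxipl, Thrsp, Pklr and Acacb, by low signal.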
